A study of Macaca mulatta with 23 samples.

Results

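The histone genes were taken as the genes whose current symbol starts with H1-, H2AC, H2BC, H3C or H4C, together with H2AX, H2AZ1, H2AZ2, H3-3A and H3-3B, which were included for contrast. The array held 77 such genes on 88 probes annotated to a single gene, out of 20046 genes with a symbol. A member was read further when a probe of it was called above background, with a detection p-value under 0.05, on at least 5 of the 23 arrays. Probes that passed were thus chosen by measured values, namely their detection p-values over all groups, and 26 of the 77 genes passed. The family itself was taken up because H4C12 and H4C9 had already been seen to be higher after anti-IL-15 in these data, so the values of those genes are a description.

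The RNA came from CD8+ effector memory T cells (TEM) sorted from the blood of rhesus macaques, and was hybridised to Illumina bead arrays. An IgG1 control antibody was given to 6 animals and an antibody against interleukin-15 (IL-15), a cytokine on which memory CD8+ T cells depend, to 6 others. Each animal was sampled before and after treatment, except that anti-IL-15 animal 3 had an array after treatment only. This left 6 control and 5 anti-IL-15 animals with both times. The ages of the animals, the doses and the interval between the times are not given in the sources used here. The array carries human probes, so a macaque mismatch under a probe can lower its signal.

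Histones are the proteins around which DNA is wound. The core histones H2A, H2B, H3 and H4 form the nucleosome, and linker histone H1 binds the DNA between nucleosomes. Most histone genes lie in clusters of near-identical copies, are transcribed mainly during DNA synthesis (S phase), and give mRNAs that end in a stem-loop bound by SLBP instead of a poly(A) tail. The variants H2AZ1, H2AZ2, H3-3A and H3-3B, and the linker gene H1-10, are expressed outside S phase and their mRNAs carry poly(A) tails, while H2AX gives both kinds of transcript. The labels name an amplification kit that starts from oligo(dT), which copies polyadenylated transcripts better than mRNAs that end in a stem-loop. Histone probes can also bind transcripts of sister copies, so each value below is that of a probe, and H2AC18 and H2AC19 in particular are near-identical genes. No level of one probe is compared with that of another.

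The array median of the deposited signal ran from 92 to 104 over the 23 arrays. CD3D and CD8A were the brightest of the 8 tested CD8 T cell markers, at mean log2 intensities of 13.60 and 12.77. The dimmest were CD5 at 6.78 and CD8B at 4.85, the latter near the lowest detected signal (4.82 to 5.04). The summed linear intensity of the 8 tested markers ran from 19990 to 29340. Of the listed markers of other blood cells, CD4, PAX5, BLK, CD1C, MPO, ELANE, PF4, ITGA2B and NCR1 were not above background on any array. Other markers of those lists passed the detection filter, among them MS4A1, CD79A, CD79B, CD22, CD14, ITGAX, CD68, NCAM1, FCGR3A, FCGR3B and PPBP. CD68 had a mean log2 intensity of 11.13. The summed linear intensity ran from 943.5 to 31020 for 4 tested of 8 platelet and erythrocyte genes (among them HBB and HBA2), from 1737 to 4177 for 5 of 10 monocyte and dendritic cell genes, from 433.5 to 1070 for 3 of 5 NK cell genes and from 109.1 to 395.2 for 4 of 7 B cell genes. Their part in the histone changes was not tested. In the arms' own changes no gene of the B cell, monocyte, neutrophil, platelet and erythrocyte, CD4 or NK cell lists passed the test, while CD8A, CD2, PRF1, NKG7, CCL5 and CX3CR1 fell after the control antibody and CX3CR1 fell after anti-IL-15. In the mean of both arms KLRF1 of the NK cell list fell by 0.96 (SE 0.25, limma adjusted p = 0.0295). The number of sorted cells ran from 20000 to 500000 per sample, and it was lower after treatment in 5 of 5 anti-IL-15 and 4 of 6 control animals. Each amplification started from 50 ng of RNA, so a level is relative to total RNA, and fewer cells of a type cannot be told apart from less RNA per cell.

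More histone probes were above background after anti-IL-15 than before it in most animals. The median array had 25 of the 89 histone probes detected before anti-IL-15 (range 23 to 28, 5 arrays) and 31.5 after it (range 22 to 34, 6 arrays). The same medians were 23.5 before the control antibody (range 22 to 28) and 24 after it (range 22 to 27, 6 arrays each). Within animals the count went up in 4 of the 5 paired anti-IL-15 animals, from 26 to 34, 25 to 30, 28 to 33 and 23 to 33, and went from 25 to 22 in anti-IL-15 animal 5. The number of all probes detected had a median of 12976 before and 12274 after anti-IL-15. Within animals it went from 12113 to 13193, 12976 to 11263, 12299 to 12297, 13510 to 11650 and 13275 to 12615 in animals 1, 2, 4, 5 and 6, so it went up in animal 1 only. Of the 89 probes, counting 1 that is annotated to both H3C11 and H3C6, 30 were not above background on any array and 16 were detected on all 23.

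**Figure D1:**
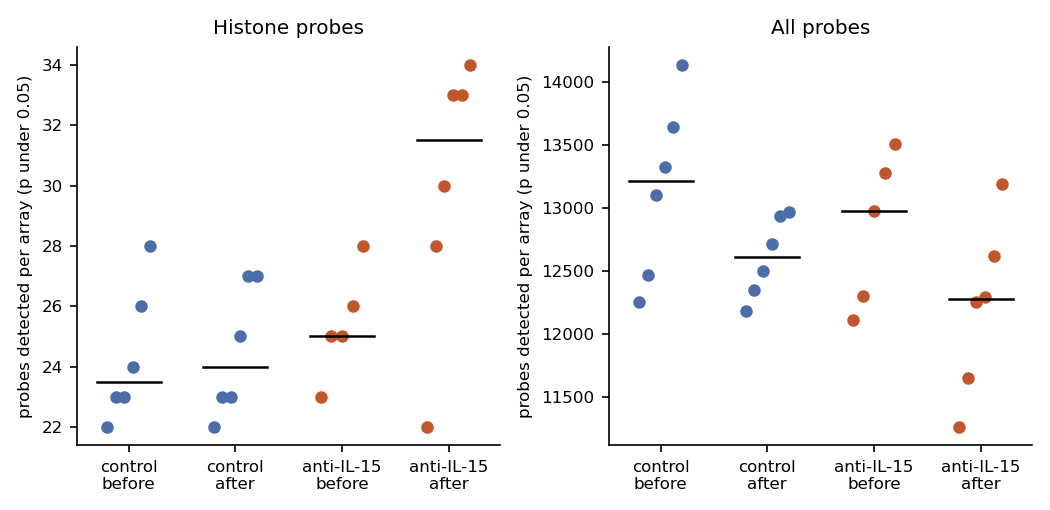
The left panel plots the number of histone probes detected on each array, and the right panel the number of all probes detected, by group, with 1 point per array and a bar at the group median. Of the 6 arrays taken after anti-IL-15, 5 lie at 28 to 34 histone probes and 1 at 22, while the median number of all probes was lower after than before anti-IL-15; both vertical axes start above 0.

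The genes with a usable probe were 4 of 9 linker H1 genes, 5 of 17 H2A genes, 5 of 18 H2B genes, 2 of 13 H3 genes, 6 of 15 H4 genes and 4 of the 5 variants. Just inside the detection limit lay H2BC4, detected on 5 arrays. Just outside it, detected on 4 arrays each, lay H2BC5, H2AC7, H4C15, H4C16 and the variant H3-3B, which is therefore not described further. Of the 26 genes, 21 are replication-dependent genes of the clusters and 5 are H1-10 and the variants H2AX, H2AZ1, H2AZ2 and H3-3A.

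Some replication-dependent histone genes rose in each arm, 5 after anti-IL-15 and 2 after the control antibody, and no histone gene fell. After anti-IL-15, 5 of the 26 genes rose at an adjusted p under 0.05 in limma's moderated test with animal as a block (H4C12, H4C9, H4C3, H2BC4 and H1-5) and none fell, against 0.446% of all 9190 genes tested that rose. That share cannot be read against the whole count, because H4C12 and H4C9 were known to be higher and H2BC4 entered the tested genes mainly through arrays taken after anti-IL-15. Without these 3 genes, 2 of the other 23 rose after anti-IL-15 (H4C3 and H1-5), 1 after the control antibody (H4C3) and 7 in the mean of both arms. The 23 still hold H2BC6, detected on 7 arrays, 4 of them taken after anti-IL-15. It would not have passed the detection filter without that group, and it was not called. After the control antibody 2 of the 26 rose (H4C12 and H4C3) and none fell, against 0.718% of all genes. Averaged over both arms 10 of the 26 rose, against 2.95% of all genes, and these were H4C12, H4C3, H4C9, H1-3, H1-5, H2AC18, H2AC19, H2AC20, H3C7 and H2BC4. The 10 include H4C12, H4C9 and H2BC4, and the control count includes H4C12. Neither count can thus be read against its share of all genes. The median log2 change of the 21 replication-dependent genes was 0.68 after anti-IL-15 and 0.52 after the control antibody, where the median of all genes was -0.05 and -0.04. All 21 had a fitted change above 0 after anti-IL-15 and 19 of 21 did after the control antibody, while 42.4% and 44.8% of all genes did. The 21 include H4C12, H4C9, H2BC4 and H2BC6, so their medians and shares are a description as well. The 5 other genes had a median log2 change of 0.22 after anti-IL-15 and -0.23 after the control antibody, and none of them passed the test in either arm.

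These counts rested on few animals and did not hold with the number of sorted cells as a covariate. With the log2 number of sorted cells as a covariate, no histone gene was called in either arm or in their mean, and the median change of the 26 genes went from 0.54 to 0.27 after anti-IL-15 and from 0.33 to 0.07 after the control antibody. That covariate removed nearly all calls of the array, with 2 of 9190 genes left after anti-IL-15 and 0 after the control antibody and in the mean. Without anti-IL-15 animal 1 no histone gene was called after anti-IL-15, and 5 were called in the mean of both arms. The anti-IL-15 count was 2 without anti-IL-15 animal 2 or 4, and 3 without control animal 2, 5 or 6, which share the estimate of the spread. The control count was 0 without control animal 1 or 4, and 1 without control animal 2. Without animal as a block the counts were 0, 0 and 3 for anti-IL-15, control antibody and their mean.

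**Figure D2:**
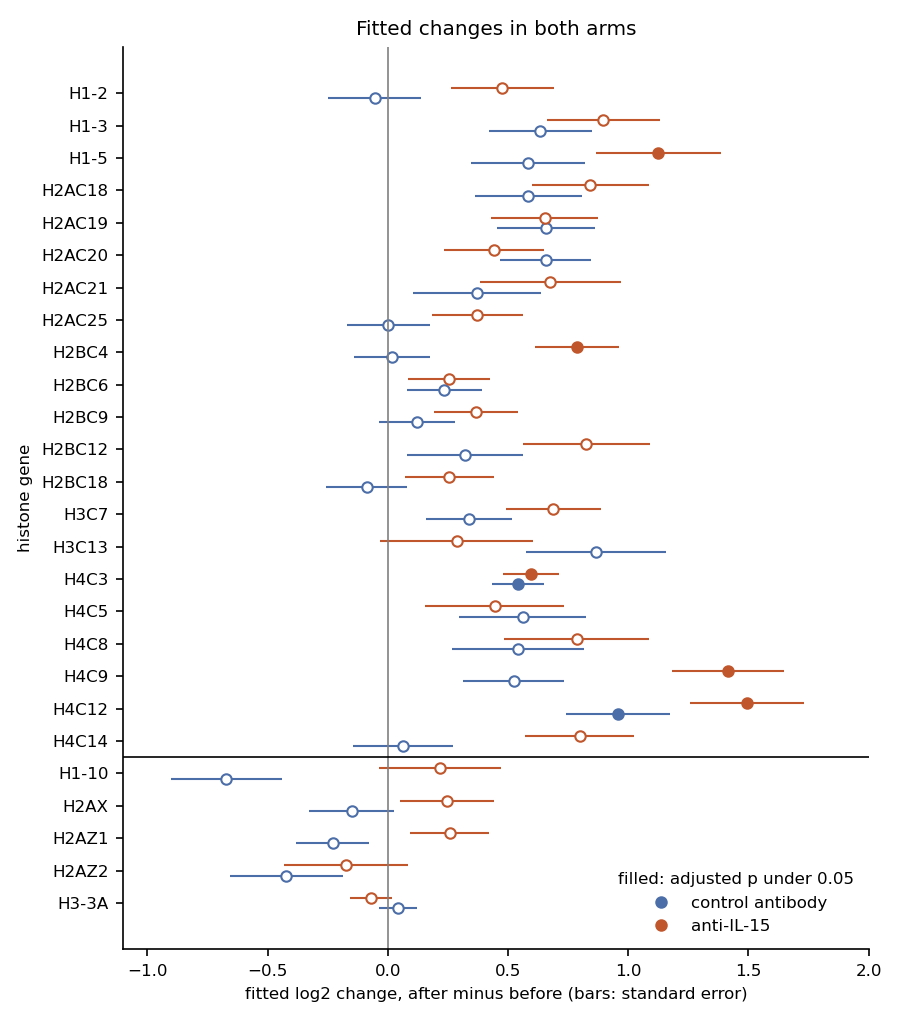
Fitted log2 change, after minus before, of the 26 histone genes in the control arm (6 animals) and the anti-IL-15 arm (5 animals), with bars for the standard error and filled points for an adjusted p under 0.05. All 21 replication-dependent genes lie above 0 after anti-IL-15, and the 5 genes under the line lie between -0.67 and 0.26 in the 2 arms.

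Of the linker histones, H1-5 had the largest fitted change after anti-IL-15 and in the mean of both arms. H1-5 encodes a replication-dependent H1 that is made in dividing cells. Before anti-IL-15 its log2 intensity was 4.81, 5.15, 4.53, 4.34 and 4.59 in animals 1, 2, 4, 5 and 6, and only that of animal 2 was above background. After anti-IL-15 it was 6.92, 6.74, 6.25, 5.90, 4.27 and 5.22 in animals 1 to 6, and was above background in all but animal 5. The level of animal 5 stayed below background at both times, so the groups overlapped only through that animal. The fitted log2 change was 1.13 (SE 0.26, n = 5, limma adjusted p = 0.0462), up in 4 of 5 animals, and its size is uncertain because 4 of the 5 levels before were not above background. After the control antibody it was 0.58 (SE 0.24, n = 6, adjusted p = 0.176), up in 5 of 6 animals, and the probe was above background in 2 of 6 control animals before and in 5 of 6 after. The call of H1-5 after anti-IL-15 held in only 9 of 23 alternative settings.

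H1-3, another replication-dependent linker histone, was detected on all 23 arrays. Its log2 intensity had a lowest, median and highest value of 5.10, 5.49 and 6.17 before anti-IL-15 and 5.76, 6.66 and 7.49 after it. In the control arm the same values were 5.48, 5.66 and 5.99 before and 5.69, 6.35 and 7.07 after. The groups overlapped in both arms, but H1-3 was up in 5 of 5 anti-IL-15 animals and in 5 of 6 control animals. The log2 change was 0.90 (SE 0.24, adjusted p = 0.0803) after anti-IL-15, 0.63 (SE 0.22, adjusted p = 0.105) after the control antibody, and 0.77 (SE 0.16, adjusted p = 0.0115) in the mean of both arms, where it rose.

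H1-2, another linker histone of the cluster, had log2 changes of 0.48 (SE 0.21) after anti-IL-15 and -0.06 (SE 0.20) after the control antibody, neither past the test. H1-10, the replication-independent linker histone, was detected on every array. Its median log2 intensity went from 9.38 to 8.83 in the control arm and from 8.59 to 9.02 in the anti-IL-15 arm. Its log2 change was -0.67 (SE 0.23, unadjusted p = 0.00902, adjusted p = 0.11) in the control arm, above 0 in 1 of 6 animals, and 0.22 (SE 0.25) in the anti-IL-15 arm. It was the member with the largest negative change in either arm.

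Among the H2A genes, H2AC18, H2AC19 and H2AC20 rose in the mean of both arms and none passed the test within an arm. All 3 encode replication-dependent H2A of the cluster that also holds H2AC21 and H2BC18. H2AC18 had a log2 intensity with lowest, median and highest values of 9.20, 10.34 and 10.58 before anti-IL-15 and 10.57, 10.99 and 11.66 after it. In the control arm these were 7.76, 9.85 and 10.80 before and 8.52, 10.41 and 10.87 after. The groups overlapped widely in the control arm and barely in the anti-IL-15 arm, and H2AC18 was higher after treatment in all 11 paired animals.
The mean log2 change of H2AC18 over both arms was 0.71 (SE 0.16, limma adjusted p = 0.0179), made of 0.84 (SE 0.24) after anti-IL-15 and 0.58 (SE 0.22) after the control antibody.

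H2AC19, whose probe may read H2AC18 as well, was also higher after treatment in all 11 animals. Its lowest, median and highest log2 intensities were 9.09, 9.91 and 10.16 before and 10.16, 10.42 and 11.02 after anti-IL-15, and 7.83, 8.95 and 10.40 before and 8.17, 9.95 and 10.44 after the control antibody. The arms gave nearly equal log2 changes, 0.65 (SE 0.22) and 0.66 (SE 0.20), with a mean of 0.66 (SE 0.15, adjusted p = 0.0178). H2AC20 ran from 10.11 to 11.17 before and from 10.64 to 11.64 after anti-IL-15, and from 9.79 to 11.05 before and from 9.68 to 11.33 after the control antibody, so its groups overlapped. Its mean log2 change was 0.55 (SE 0.14, adjusted p = 0.0274), up in 10 of 11 animals, with 0.66 (SE 0.19, adjusted p = 0.0631) in the control arm.
H2AC21 had log2 changes of 0.68 (SE 0.29) and 0.37 (SE 0.27) after anti-IL-15 and the control antibody, and H2AC25 of 0.37 (SE 0.19) and 0.00 (SE 0.17). Neither passed the test, and H2AC25 was detected on 10 of 23 arrays.

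H2BC4 was the H2B gene that passed the test after anti-IL-15. It was not above background on any of the 5 arrays before anti-IL-15, where its log2 intensity was 4.51, 4.66, 4.49, 4.76 and 4.52 in animals 1, 2, 4, 5 and 6. After anti-IL-15 it was 5.65, 5.81, 5.53, 4.92, 4.81 and 5.69 in animals 1 to 6, and was detected in animals 1, 2, 3 and 6. In the control arm it ran from 4.36 to 5.02 before and from 4.42 to 4.81 after, and was detected on 1 of these 12 arrays. All after anti-IL-15 values thus lay above all before values, and 4 of 6 lay above the whole control arm. In animals 4 and 5, however, the probe was not above background at either time, so the separation of their values is not a measured one.
Since the level before was below background, the difference is a bound, which compares the mean after with the dimmest signal that counted as detected or the probe's own value, whichever was higher. By this bound the mean of the 6 arrays after anti-IL-15 was at least 1.42-fold above that of the 5 before. The mean after includes the undetected values of animals 4 and 5, so the bound is not strict. The fit within the 5 paired animals is another measure (limma adjusted p = 0.0408, up in 5 of 5 animals, in animals 4 and 5 between undetected levels). By the same bound H2BC4 was at least 1.40-fold higher after anti-IL-15 than after the control antibody. That difference did not pass the test (limma adjusted p = 0.202). The call after anti-IL-15 held in only 9 of 22 alternative settings. Since 4 of its 5 detected arrays were taken after anti-IL-15, H2BC4 entered the tested genes through the group in which it was high. Its p-value and separation are thus a description.

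The other 4 H2B genes did not pass the test in either arm or in the mean. H2BC12 had the largest changes of these, a log2 change of 0.82 (SE 0.26, adjusted p = 0.145) after anti-IL-15 and 0.32 (SE 0.24) after the control antibody. Its values per animal spread widely after anti-IL-15, from -0.40 in the lowest to 1.75 in the highest animal. H2BC9 was above background in 2 of 5 animals before anti-IL-15 and in 5 of 6 after, with a log2 change of 0.37 (SE 0.17), and H2BC6 in 1 of 5 and 4 of 6, with a change of 0.26 (SE 0.17). H2BC18 had log2 changes of 0.26 (SE 0.18) and -0.09 (SE 0.17) in the anti-IL-15 and control arms.

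Of the H3 genes, H3C7 was higher after treatment in all 11 paired animals. H3C7 encodes a replication-dependent H3. Its lowest, median and highest log2 intensities were 4.72, 5.58 and 5.90 before and 5.30, 6.19 and 6.62 after anti-IL-15, and 4.98, 5.17 and 5.58 before and 5.17, 5.46 and 6.02 after the control antibody. The groups overlapped in each arm, and the mean log2 change was 0.51 (SE 0.13, limma adjusted p = 0.0282), with 0.69 (SE 0.20) after anti-IL-15 and 0.34 (SE 0.18) after the control antibody. For H3C13 the 2 usable probes disagreed in the control arm. The brighter probe had a log2 change of 0.86 (SE 0.29, adjusted p = 0.103), the other of 0.02 (SE 0.16), and after anti-IL-15 they gave 0.29 (SE 0.32) and 0.35 (SE 0.18).

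All 6 H4 genes had positive fitted changes in both arms, and H4C12, H4C9 and H4C3 passed the test after anti-IL-15. In humans nearly all H4 genes of the clusters encode the same protein. H4C12 had a log2 intensity of 7.17, 7.45, 8.45, 6.63 and 7.39 in animals 1, 2, 4, 5 and 6 before treatment. After anti-IL-15 it was 8.91, 8.79, 8.69, 9.46, 8.39 and 9.02 in animals 1 to 6. Animal 4 was the highest at both times, and its level before slightly exceeded the level of animal 5 after.
In the control arm H4C12 was 7.00, 6.25, 8.01, 6.72, 7.13 and 6.17 before and 8.67, 6.86, 8.44, 8.53, 7.48 and 7.05 after in animals 1 to 6, so the groups overlapped widely. H4C12 was higher after treatment in 5 of 5 anti-IL-15 animals, by 1.01 to 1.76, and in 6 of 6 control animals, by 0.35 to 1.81. Its log2 change was 1.50 after anti-IL-15 (SE 0.24, 2.82-fold, limma adjusted p = 0.00589) and 0.96 after the control antibody (SE 0.22, 1.94-fold, adjusted p = 0.034). Without anti-IL-15 animal 1 the first of these had an adjusted p of 0.0677, and without control animal 1, 2 or 4 the other had 0.183, 0.0798 and 0.108.

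H4C9 started higher in the anti-IL-15 animals than in most control animals, a difference of the arms that did not pass the test (limma adjusted p = 0.36). Before anti-IL-15 its log2 intensity was 7.01, 6.41, 7.43, 6.68 and 6.72 in animals 1, 2, 4, 5 and 6. Before the control antibody it was 4.64, 5.02, 7.96, 4.53, 4.94 and 5.18 in animals 1 to 6, so that 5 of the 6 control animals lay below every anti-IL-15 animal and control animal 3 lay above all of them. After treatment it was 9.04, 7.52, 7.64, 8.63, 8.27 and 7.87 in anti-IL-15 animals 1 to 6 and 5.22, 6.27, 8.14, 4.73, 4.87 and 6.18 in control animals 1 to 6.
No anti-IL-15 animal's level before reached the lowest level after, while the control groups overlapped. H4C9 rose by 1.42 after anti-IL-15 (SE 0.23, 2.67-fold, limma adjusted p = 0.00703, up in 5 of 5 animals by 1.10 to 2.03). After the control antibody its log2 change was 0.52 (SE 0.21, adjusted p = 0.172), up in 5 of 6 animals. Without anti-IL-15 animal 1 the change after anti-IL-15 was 1.26 with an adjusted p of 0.0677.

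H4C3 had the smallest standard error of the H4 genes. Its log2 intensity was 13.35, 13.64, 13.64, 12.61 and 13.58 before and 14.18, 14.10, 13.94, 14.20, 13.35 and 13.99 after anti-IL-15, for animals 1, 2, 4, 5 and 6 and animals 1 to 6. In control animals 1 to 6 it was 12.78, 13.24, 13.43, 12.21, 13.03 and 12.66 before and 13.65, 13.46, 13.93, 13.27, 13.43 and 12.87 after. The groups overlapped in both arms, with anti-IL-15 animal 5 lowest of its arm at both times, but all 11 paired animals were higher after treatment.
H4C3 rose by a log2 change of 0.60 after anti-IL-15 (SE 0.12, 1.51-fold, limma adjusted p = 0.0246) and of 0.54 after the control antibody (SE 0.11, 1.46-fold, adjusted p = 0.0185). Without control animal 1 or 4 the control change had an adjusted p of 0.106 and 0.0693. H4C14 had log2 changes of 0.80 (SE 0.23, adjusted p = 0.105) after anti-IL-15 and 0.06 (SE 0.21) after the control antibody. H4C8 had 0.79 (SE 0.30) and 0.54 (SE 0.27), and H4C5 0.45 (SE 0.29) and 0.56 (SE 0.26), and none of these passed the test in an arm.

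**Figure D3:**
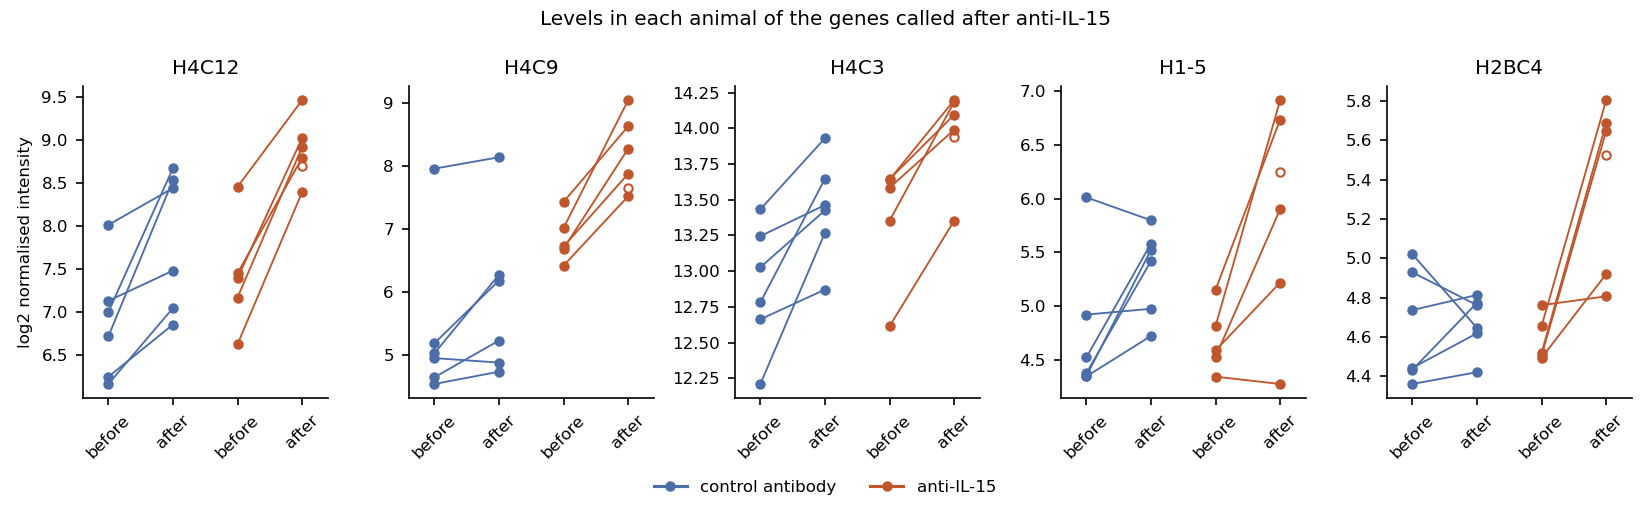
Log2 normalised intensity of H4C12, H4C9, H4C3, H1-5 and H2BC4 before and after treatment, with a line for each animal and an open point for anti-IL-15 animal 3, which had no array before treatment; each panel has its own vertical axis. All lines of H4C12 and H4C3 go up in both arms, and H4C9 starts higher in the anti-IL-15 arm than in 5 of 6 control animals.

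None of the 4 variants passed the test in either arm or in the mean. H2AZ1, which encodes the H2A.Z found at promoters, had log2 intensities from 11.87 to 12.72 before and 12.15 to 12.74 after anti-IL-15, and from 11.78 to 12.62 before and 11.70 to 12.34 after the control antibody. Its log2 changes were 0.26 (SE 0.17) and -0.23 (SE 0.15), with adjusted p of 0.481 and 0.44. H2AZ2, which encodes another H2A.Z protein, had log2 changes of -0.17 (SE 0.26) and -0.42 (SE 0.24), and H2AX, whose product is phosphorylated at DNA breaks, of 0.25 (SE 0.19) and -0.15 (SE 0.18). H3-3A, which encodes H3.3, was detected on every array and had log2 changes of -0.07 (SE 0.09) and 0.04 (SE 0.08). The other 2 probes of H3-3A gave 0.10 and 0.02 after anti-IL-15 and 0.23 and 0.22 after the control antibody.

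The changes of the arms were then compared directly. The difference of the changes, anti-IL-15 minus control, passed the test for none of the 26 histone genes in limma, against 0.0109% of all genes, and 5 of the 26 had an unadjusted p under 0.05. Over all genes 891 of 9190 had such a p, and 4.72% of all genes had it with a positive difference. The 5 were H2BC4 (unadjusted p = 0.00383, adjusted p = 0.348, of no measured size since it was below background on most arrays), H4C9 (0.89, SE 0.31, adjusted p = 0.383), H1-10 (0.89, SE 0.34), H4C14 (0.73, SE 0.31) and H2AZ1 (0.49, SE 0.23). All 5 differences had the same direction, higher in the anti-IL-15 arm. For H4C12 the difference was 0.54 (SE 0.32, adjusted p = 0.622) and for H4C3 0.06 (SE 0.16, adjusted p = 0.942), and a p that misses the threshold does not show that the arms acted alike.

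After treatment, none of the 26 genes differed between the arms in limma, against 0.0109% of all genes, with 13 at an unadjusted p under 0.05, as 732 of the 9190 genes had. All 13 were higher after anti-IL-15, as 3.85% of all genes were at that p, and they included all 6 H4 genes. The fitted differences of all 6 H4 genes were above 0 already before treatment, with a median of 0.54 before and 0.82 after it. Before treatment 3 of the 6 were higher at an unadjusted p under 0.05 in limma, as 4.93% of all genes were. H4C9 had both the largest difference and the smallest p, 2.26 (SE 0.47, adjusted p = 0.0932). In order of p it was followed by H2AZ1 with 0.51 (SE 0.13, adjusted p = 0.201) and by H2BC4 (adjusted p = 0.202), whose difference is the bound given above. By size H4C12 came next, with 1.04 (SE 0.32, adjusted p = 0.327). Before treatment none differed, against 0% of all genes, with 6 at an unadjusted p under 0.05, as 964 of the 9190 genes had, and here too H4C9 was higher in the anti-IL-15 animals, by 1.47 (SE 0.48, adjusted p = 0.36). H4C5 differed by 0.96 (SE 0.28) and H1-10 by -0.67 (SE 0.22) before treatment, each with an adjusted p of 0.36. H4C5 ran from 5.33 to 6.48 in the control and from 5.98 to 7.27 in the anti-IL-15 animals, so that the groups overlapped.
Without control animal 3, whose H4C9 level stood apart, H4C9 was higher in the anti-IL-15 arm both before (1.99, limma adjusted p = 0.00189) and after treatment (2.71, adjusted p = 0.00345). That animal stood apart by the same H4C9 values that are compared, and leaving it out removes the control level above all anti-IL-15 levels before treatment. These p-values are thus a description, and with all animals H4C9 did not differ between the arms. No other histone gene was called between the arms, before or after treatment, under any alternative setting run.

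Read within animals, the changes were uneven. After anti-IL-15, 11 of the 26 genes were higher in every paired animal (H1-3, H2AC18, H2AC19, H2AC20, H2AC25, H2BC4, H3C7, H4C3, H4C8, H4C9 and H4C12), against 4.96% of all genes. After the control antibody 5 were (H2AC18, H2AC19, H3C7, H4C3 and H4C12), against 4.96% of all genes, and the same 5 were higher in all 11 animals, against 0.544% of all genes. The 11 genes include H4C12, H4C9 and H2BC4, and the 5 include H4C12. These counts are thus a description and cannot be read against the shares of all genes. The number of the 21 replication-dependent genes that were higher after treatment was 20, 21, 20, 12 and 20 in anti-IL-15 animals 1, 2, 4, 5 and 6, and 17, 18, 14, 19, 13 and 14 in control animals 1 to 6. Their median log2 change was 1.21, 0.46, 0.43, 0.13 and 0.83 in the anti-IL-15 animals and 0.58, 0.33, 0.17, 1.06, 0.10 and 0.08 in the control animals. The arms overlapped, since control animal 4 had the second highest median of all 11 animals and anti-IL-15 animal 5 lay within the range of the lower control animals.

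**Figure D4:**
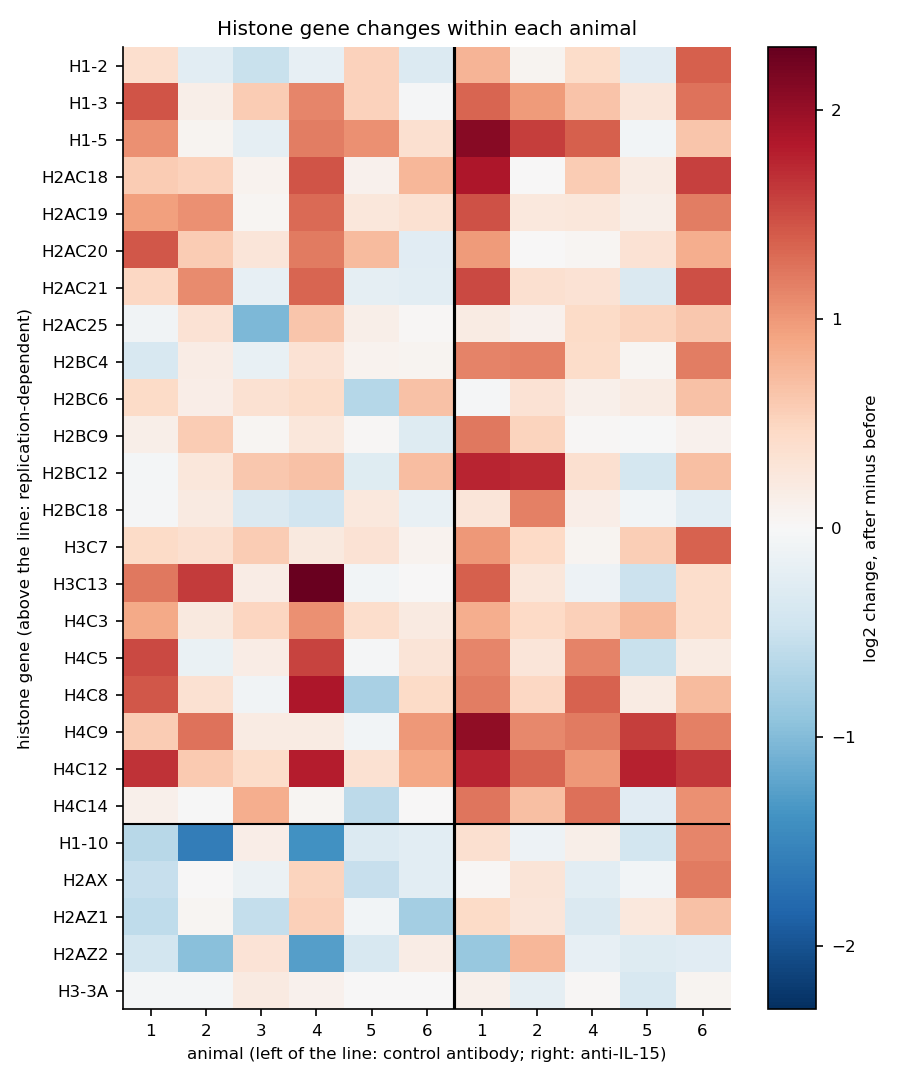
Colour gives the log2 change, after minus before, of each of the 26 histone genes (rows) in each of the 11 paired animals (columns). Replication-dependent genes above the horizontal line are mostly red, with 20 or 21 of 21 above 0 in anti-IL-15 animals 1, 2, 4 and 6 and 13 to 19 in the control animals, and anti-IL-15 animal 5 is red chiefly at H4C12, H4C9 and H4C3.

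The 28S ribosomal RNA signal and the number of sorted cells also differed between the times and are set beside the histone changes. The probe of 28S ribosomal RNA (RNA28SN5), an RNA without a poly(A) tail, was higher after treatment by log2 3.66 to 4.28 in 5 animals (control 1 and 4, anti-IL-15 1, 2 and 5) and changed by -3.62 to 0.13 in the other 6. H4C12 changed by 1.34 to 1.81 in the first 5 and by 0.35 to 1.63 in the other 6. For H4C9 these ranges were 0.20 to 2.03 and -0.07 to 1.25, and for the median of the 21 genes 0.13 to 1.21 and 0.08 to 0.83. With the 28S level as a covariate, limma called 2 of the 26 genes after anti-IL-15 and 6 after the control antibody, 5 of which rose. H4C12 then had log2 changes of 1.24 (adjusted p = 0.019) and 0.94 (adjusted p = 0.00327), and H4C9 1.37 (adjusted p = 0.0246) after anti-IL-15.
The log2 ratio of sorted cells, after to before, was -2.71, -2.65, -2.48, -1.25 and -1.28 in the anti-IL-15 animals and -2.32, -2.32, -0.56, -2.92, 0.08 and 0.79 in the control animals. With the cell number as a covariate the log2 changes of H4C12 were 1.09 (adjusted p = 0.727) and 0.72 (adjusted p = 0.458), and that of H4C9 after anti-IL-15 was 1.33 (adjusted p = 0.655). The part of cell number in the histone changes was not tested apart from treatment, because 9 of the 11 animals gave fewer cells after treatment.

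The histone genes were set beside genes of the processes they belong to. Of 25 tested genes of S phase and DNA replication, 2 rose after anti-IL-15, namely TYMS, which makes the thymidylate for DNA (1.53, SE 0.26, limma adjusted p = 0.00873), and GINS2, a subunit of the replicative helicase (1.22, SE 0.21, adjusted p = 0.00873). None of the 25 was called after the control antibody, where the smallest p belonged to the transcription factor E2F1 (0.68, SE 0.24, adjusted p = 0.121) and to UHRF1, which maintains DNA methylation (0.56, SE 0.21, adjusted p = 0.143). The median log2 change of the list was 0.33 after anti-IL-15 and 0.06 after the control antibody. Of 8 tested proliferation markers, CDC20, CCNB2, CCNA2 and TYMS rose after anti-IL-15 and none was called after the control antibody, and MKI67 and CCNB1 were not above background on any array. The summed linear intensity of these 8 genes ran from 335 to 1084 (median 736) before and from 483 to 2066 (median 1629) after anti-IL-15, and from 261 to 750 (median 364) before and from 260 to 936 (median 500) after the control antibody. That a change in the share of dividing cells took part in the histone changes was not tested.

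Few genes that process or carry histones passed the test. Of 15 tested genes of histone mRNA 3' end processing, SNRPG, a small nuclear ribonucleoprotein shared with the spliceosome, rose after anti-IL-15 (0.45, SE 0.10, limma adjusted p = 0.0467), and none was called after the control antibody. There SNRPG had a log2 change of 0.27 (SE 0.095, adjusted p = 0.114), up in 6 of 6 animals. In the mean of both arms SNRPG rose by 0.36 (SE 0.07, adjusted p = 0.00954), up in 11 of 11 animals. SLBP, which binds the histone stem-loop, had log2 changes of 0.23 (SE 0.28) and -0.30 (SE 0.26), and NPAT, the activator of histone gene transcription, of -0.36 (SE 0.24) and -0.09 (SE 0.22). Of 22 tested histone chaperones and import factors none was called in an arm, and ASF1A, an H3-H4 chaperone, fell by 0.57 in the mean of both arms (SE 0.16, adjusted p = 0.0411). Of 4 tested histone variants outside the symbols above, H2AJ, an H2A variant, rose in the mean of both arms (0.56, SE 0.13, adjusted p = 0.0214) and none was called in an arm.

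The changes of H4C12 and H4C9 were finally set against those of TYMS and against the ratio of sorted cells, in 8 relations over all 11 paired animals or the 6 control animals. Both genes were known to be higher after anti-IL-15, so the relations describe how their changes varied among animals and support no change. H4C12 and TYMS gave Pearson's r = 0.672 over 11 animals (permutation p = 0.0213, adjusted over the 8 relations p = 0.171; Spearman's rho = 0.6, permutation p = 0.0568, adjusted p = 0.206), and r = 0.582 without the 2 animals farthest from the median TYMS change. Within the 6 control animals r was 0.718 (exact permutation p = 0.111, adjusted p = 0.222; rho = 0.771, p = 0.103, adjusted p = 0.206), and 0.556 without the 2 farthest. H4C9 and TYMS gave r = 0.604 over 11 animals (permutation p = 0.0478, adjusted p = 0.191; rho = 0.555, p = 0.0816, adjusted p = 0.206), r = 0.579 without the 2 farthest, and r = 0.268 within the control animals (exact permutation p = 0.644). The pooled values mix the arms, and 5 anti-IL-15 animals are too few for a value of their own.
H4C12 and the log2 ratio of sorted cells gave r = -0.556 over 11 animals (permutation p = 0.0844, adjusted p = 0.222; rho = -0.615, p = 0.0492, adjusted p = 0.206), r = -0.354 without the 2 farthest, and r = -0.653 within the control animals (exact permutation p = 0.172). H4C9 and that ratio gave r = -0.329 (permutation p = 0.319; rho = -0.342, p = 0.301) over 11 animals and r = -0.092 (exact permutation p = 0.833) within the control animals. None of the 8 relations passed an adjusted p of 0.05.

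**Figure D5:**
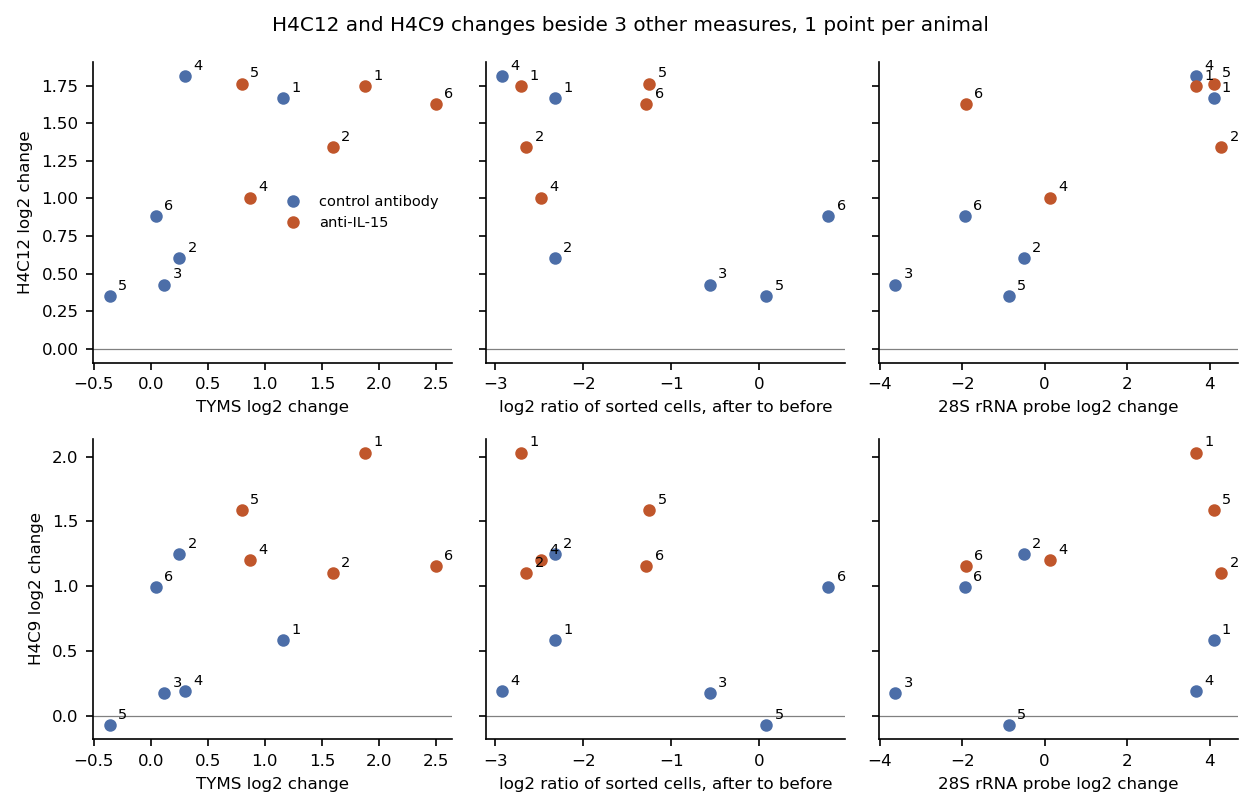
Log2 changes of H4C12 (top) and H4C9 (bottom) in the 11 paired animals against the TYMS change, the log2 ratio of sorted cells and the change of the 28S rRNA probe, with numbers for the animals of each arm. The 5 animals with a 28S change of 3.66 to 4.28 have H4C12 changes of 1.34 to 1.81, and control animals 3 and 5 have the lowest H4C12 and H4C9 changes beside control animal 4 for H4C9.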

How the data were processed

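RNA of sorted CD8+ TEM was measured on 23 arrays. Per the file headers, the deposited table gives a signal intensity on a linear scale and a detection p-value per probe and array, before normalisation. A further table deposited by the authors holds log2 values. These were quantile normalised by their own distribution, and limma is named in the submitters' processing notes with no version. It served as an alternative.

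In R 4.3.3, limma 3.58.1 corrected the signals by normexp (offset 16), taking the negative controls' mean and spread from the detection p-values, and quantile normalised them to log2 values. Of 47230 probes, 15744 were kept, which were detected (p under 0.05) on 5 arrays or more and had no signal of 0. Of these, 11131 had a single current symbol, and the brightest probe of each of 9190 genes was tested. A linear model over 23 arrays with animal as a block, or over the 12 arrays after or the 11 before treatment, was fitted with eBayes and an intensity trend. Benjamini-Hochberg adjustment ran over all 9190 genes with a threshold of 0.05. The scripts were tested on simulated data. The number of arrays limits the precision.

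Animals pair the arrays through the donor label. The correlation of deviations from the group means within the 11 pairs ran from 0.05 to 0.51 (median 0.29). The animals are separate donors.

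The histone genes and the other gene lists were chosen with earlier results of these data known. Every histone gene with a kept probe is named, values per array or per group are given for those called or with the 3 smallest p in a comparison, and up to 4 called genes of another list, or the 2 of smallest p, are named. Of the 77 symbols, 73 were found in the macaque gene tables, including all 26 that were read. Alternatives were the background correction, scaling, source of values, filter, choice of probe, block, covariates and each animal left out. A filter of 12 arrays was added after the data were seen. No slide is given in the headers, so no slide block was fitted. Probe and transcript sequences were not used here.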

Additional observations from a re-analysis of the deposited data

Results flagged for a closer look

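The level of each of the 26 histone genes in each of the 4 groups, and its change in each arm, was checked for an animal that stood apart from the rest of its group by Dixon's criterion. Of 156 groups of 5 or 6 values, 9 were picked out, where chance alone would pick out about 1 in 20, or 7.8. Before the control antibody, animal 3 was high for H4C9, at a log2 intensity of 7.96 beside 4.53 to 5.18 in the other 5 animals, and for H1-5, at 6.01 beside 4.34 to 4.92. H2BC6 was high in control animal 5 before treatment, at 5.42 beside 4.36 to 4.64, and in control animal 6 after treatment, at 5.07 beside 4.72 to 4.84. H2AC18 was low in control animal 6 after treatment, at 8.52 beside 10.06 to 10.87. H4C3 was low in anti-IL-15 animal 5 both before treatment, at 12.61 beside 13.35 to 13.64, and after it, at 13.35 beside 13.94 to 14.20. Anti-IL-15 animal 1 was low before treatment for H3C13, at 5.91 beside 6.84 to 7.15, and for H3-3A, at 13.72 beside 13.90 to 13.94. No change within an arm was picked out, and no gene moved one way in every animal of one arm and the opposite way in every animal of the other.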

How the results depend on the processing

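Of 142 counts of called histone genes under alternative settings, 116 stayed within 1.5 times the reported count, 22 were lower and 4 higher. The 116 include counts that stayed at 0 in the comparisons between the arms, where the reported count was 0. All 22 lower counts therefore belong to the changes within the arms or their mean, which were less stable than the pooled share. Of 626 values of single genes, 529 kept their side of the threshold, 92 lost the call, 5 gained it and none changed sign. The 626 values include genes that were not called with the reported settings. The count after anti-IL-15 (5) was 3 with 75th percentile scaling, with no filter on dim probes (77 genes) and with all probes as features, and 2 with probes detected on all arrays (14 genes) and with the 28S covariate. The count after the control antibody (2) was 4 with 75th percentile scaling, 1 with no filter and 6 with the 28S covariate. Without the animal block the counts were 0 after anti-IL-15, 0 after the control antibody and 3 in the mean of both arms (10). With cell number as a covariate all 3 were 0. Leaving out an animal gave 0 to 5 after anti-IL-15, 0 to 3 after the control antibody, 5 to 11 in the mean, and 0 to 1 for the arms compared before or after treatment. With the filter of 12 arrays, added after the data were seen, 4, 2 and 10 of 21 genes were called. The cause of these shifts was not tested. Dim probes limit the reading: the lowest detected signal lay at a log2 intensity of 4.82 to 5.04, near the levels of H1-5, H2BC4, H2BC6, H2BC9, H2AC25 and H2AX.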
